A study of Mus musculus with 4 samples.

Results

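Cytosolic ribosomal protein genes were examined in classical (Ly6C-high) monocytes isolated by sorting from marrow of C57BL/6 wild-type mice of 2 ages. The genes were taken by symbol (Rpl or Rps with a number and optional letters, plus Rplp0, Rplp1, Rplp2 and Rpsa), leaving out Rps6k kinases and symbols with -ps, which gave 86 of the 27998 gene features, 53 of them Rpl (large subunit) and 33 Rps (small subunit). Read with letters alone after the number, the rule held 83, without Rps3a1, Rpl22l1 and Rpl7l1. The members lay on 19 chromosomes, and 4 of them, Rpl10, Rpl36a, Rpl39 and Rps4x, were on the X chromosome. Single-cell RNA sequencing had been done on a male and a female pool, each of 5 young and 5 old mice that carried 1 hashtag antibody per mouse. In the male pool the young mice were aged 14 weeks and the old 27 months; in the female pool these ages were 15 weeks and 26.5 months. Each sex was therefore a single library, and all cells came from the same kind of sort.

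Ribosomal proteins assemble with ribosomal RNA in the nucleolus into the large and the small subunit of the ribosome. Their mRNAs are among the most abundant in a growing cell and typically begin with a C followed by a stretch of pyrimidines, the terminal oligopyrimidine (TOP) start, through which growth signals regulate their translation together. In bone marrow, committed progenitors and dividing precursors carry high protein synthesis, which falls as myeloid cells mature.

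In females, 6641 cells were assigned to a mouse (3009 old and 3632 young), with 259 to 1592 cells and 2827638 to 18186954 unique molecular identifiers (UMIs, counted RNA molecules) per mouse. In males, all 1227 barcodes were assigned by their leading hashtag (526 old and 701 young), with 49 to 206 cells and 330586 to 1108320 UMIs per mouse. No cell barcode was shared between the pools. The mouse was the replicate, and its cells were summed. The 6 defining markers of classical monocytes were all detected in each group, with a summed level of 24923 to 30963 CPM (UMIs of a gene scaled to a total of 1000000 UMIs per mouse, or per mouse and cluster) in females and 15616 to 36207 in males. Old male 4 stood apart, with 49 cells, of which 91.8% lay in clusters of proliferating or neutrophil-like cells. Other cell types were rare, with 34 T or NK-like cells in females and 15 basophil-like cells in males, and a further female cluster of 117 cells led by Gh, Pomc and Prl was left unnamed. Of the members, 85 had at least 1 UMI and 83 passed the filter on low counts in each pool; Rpl10l was at 0 in all mice, and Rpl3l and Rpl39l were too rare to test.

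Start sites of the members on which the results turn are shown to set them beside the TOP start. Each line gives 15 bases before and 15 from the first transcribed base of RefSeq (GRCm38.p6), 5′ to 3′ on the gene's strand, and the capitals mark a C followed by at least 4 bases that are each C or T, searched on the transcribed strand within 5 bases of the start.
Rps24, chr14:24490663-24490692, plus strand: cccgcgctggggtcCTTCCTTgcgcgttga
Rps27, chr3:90213634-90213663, minus strand: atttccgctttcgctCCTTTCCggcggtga
Rps27rt, chr9:114982725-114982754, minus strand: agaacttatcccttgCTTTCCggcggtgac
Rps27l, chr9:66946071-66946100, plus strand: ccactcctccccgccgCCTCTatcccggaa
Rps2, chr17:24720048-24720077, plus strand: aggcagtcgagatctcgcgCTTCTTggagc
Rpl22l1, chr3:28805493-28805522, plus strand: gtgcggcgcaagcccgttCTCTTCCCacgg
Rpl22, chr4:152324421-152324450, plus strand: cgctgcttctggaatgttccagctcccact
Rpl7l1, chr17:46782642-46782671, minus strand: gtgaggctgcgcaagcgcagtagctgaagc
Rpl37a, chr1:72711245-72711274, plus strand: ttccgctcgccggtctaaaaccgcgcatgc
No such run was found within 5 bases of the start of Rpl22, Rpl7l1 or Rpl37a. Where RefSeq lists several starts for a gene, the start nearest to such a run is shown, or otherwise the first listed. A run within 5 bases of a start was found in 30 of the 65 members with a window (46.2%), against 21.2% of 27025 genes, and exactly at a start in 21.5% of members against 3.01% of genes. The windows of Rps27 and its retrocopy Rps27rt share an unbroken stretch of 14 bases. It begins at the start of Rps27rt and at the base after the start of Rps27. The libraries were read from the 3′ end of transcripts, so this stretch does not show how reads were assigned. Whether reads were split between both genes was not tested, and their levels are uncertain to that extent.

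The share of a cell's UMIs that fell on ribosomal protein genes differed between the states of monocytes. Clusters were made in each pool without any ribosomal protein gene. The share was highest in the cluster led by Mpo, Elane and Ctsg, which carries the genes of neutrophil-like monocytes (NeuMo-like). There it was 24.4% in females and 23.3% in males, against 17.2% and 19.8% in the most populous cluster, called mature-type here, which was led by genes such as Wfdc17, Sirpb1c and Clec4a3. The female cluster with S-phase genes came next among monocytes, with 19.2%, while cells with G2/M genes (17.1%) and cells with MHC class II and interferon-induced genes (DCMo/interferon-like, 16.9%) were near the mature-type level. In males the NeuMo-like cluster also carried S-phase genes, and the G2/M-like cluster was at 20.1%. The lowest shares were in the cluster led by Hist1h2bc and Ccnb2, with 16.5% in females and 17.5% in males.

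The NeuMo-like cluster had the highest share of the monocyte clusters in 10 of 10 females and in all 9 males with at least 10 such cells. Within a mouse it exceeded the mature-type cluster by 6.74 to 8.30 percentage points in females, and by 1.76 to 5.41 points in the 8 males with enough cells of both. NeuMo-like cells were also sequenced more deeply, with a median of 25105 UMIs per cell against 7217 in mature-type cells of females. After thinning every cell to 2000 UMIs the shares were 24.4% and 17.2% in females and 22.6% and 19.8% in males. Thinning draws UMIs at random within a cell, which leaves its expected share unchanged and alters only the weight of each cell. Whether depth bears on the share was therefore not tested. Beyond these clusters, T or NK-like cells held 23.3% and basophil-like cells 21.0% on ribosomal protein genes.

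**Figure D1:**
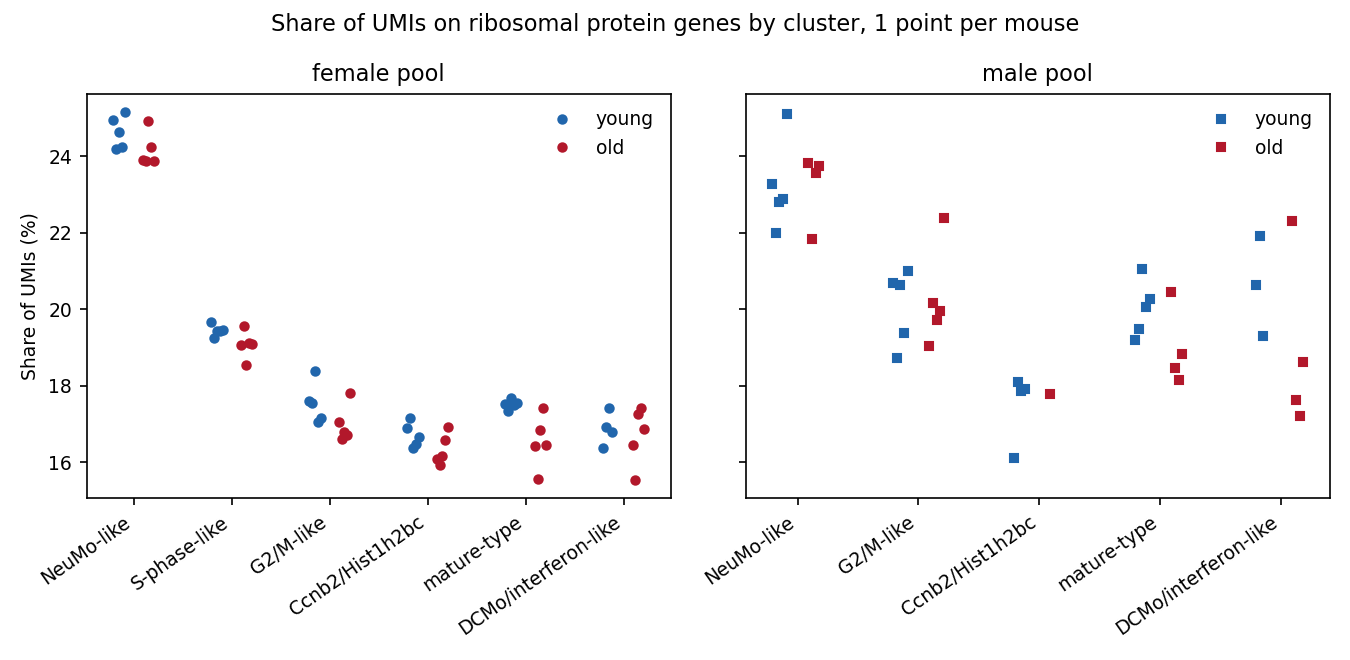
Share of UMIs on ribosomal protein genes (%, y axis) in each monocyte cluster (x axis) of the female (left) and male (right) pool, with 1 point per mouse that had at least 10 cells in the cluster, young in blue and old in red. In females, the NeuMo-like points lie between 23.9 and 25.2 and all others at or below 19.7; in males the NeuMo-like points lie between 21.8 and 25.1.

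Most members took part in this difference, but not all to the same degree. Comparing CPM in NeuMo-like and mature-type cells of the same mouse, 75 of 83 members (90.4%) were higher in NeuMo-like cells in all 10 females, against 23.1% of all 10074 genes tested. In males 57 of 83 members (68.7%) were higher in all 8 mice compared, against 18.6% of 5656 genes. The median log2 difference of the members was 0.54 in females and 0.29 in males, beside −0.11 and 0.05 over all genes. Clusters are defined by the same cells, so these values are a description without a test. Most members have high counts, which makes agreement over all mice easier than for genes with few UMIs. Genes of like level were not compared.

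Rps2, a small subunit protein near the mRNA entry channel, had the largest difference. Its level was 7136 to 7942 CPM in the NeuMo-like cells of females and 2344 to 2793 in their mature-type cells, and in males it was 2605 to 3279 against 1347 to 1759. The ranges did not overlap in either pool, and the median log2 difference was 1.59 in females and 0.97 in males. The large subunit genes Rpl14 (1.35 and 0.80), Rpl22l1 (1.33 and 0.84) and Rpl36a (1.21 and 0.75) followed with the same order of pools. Against this trend, Rps9 was lower in NeuMo-like cells of every mouse, at 3465 to 3880 CPM against 4696 to 5403 in females and at 3577 to 3917 against 4272 to 4941 in males. Rps27 was likewise lower in every mouse, and Rps27rt and Rpl10 were lower in every female but not in every male.

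**Figure D2:**
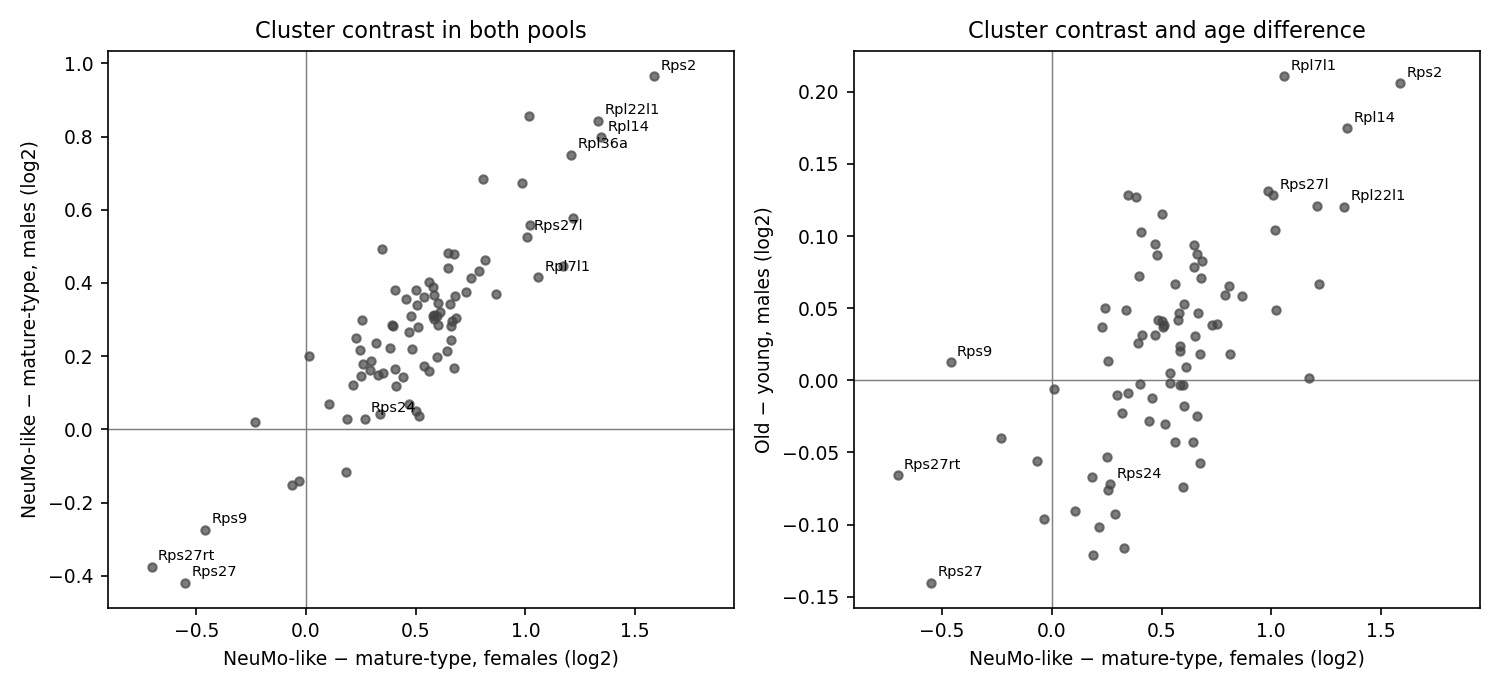
Log2 difference between NeuMo-like and mature-type cells (median over mice) of each of the 83 ribosomal protein genes in females (x axis, both panels), set against the same in males (left) and against the log2 difference between old and young males (right). Rps2 lies at the upper right of both panels, and Rps27 at the lower left.

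Several ribosomal proteins have a paralog, and paralogs differed between the cell states in unlike ways. Rps27 (eS27) was lower, with 395 to 493 CPM in NeuMo-like cells of females against 606 to 730 in mature-type cells. Its paralog Rps27l, which is known as a p53-inducible gene, stood the other way round, with 451 to 590 against 209 to 289. The ranges of each did not overlap between the clusters in females, while in males both differed in the same directions within every mouse but their ranges overlapped. Rpl22l1 differed by more than Rpl22, with median log2 differences of 1.33 and 0.51 in females and 0.84 and 0.34 in males. Rpl36a exceeded Rpl36al in the same way (1.21 and 0.41 in females, 0.75 and 0.12 in males), as did Rpl7l1, whose product acts in the assembly of the large subunit, over Rpl7 in females (1.06 and 0.33). Of the pairs with a tissue-restricted partner, Rpl3 was at 2286 to 2560 and Rpl10 at 1851 to 2176 CPM over the females, whereas Rpl3l, a gene of striated muscle, had 34 UMIs in all females and Rpl10l, a gene of the testis, had 0. Rpl39l, a paralog of Rpl39 known from the testis, had 54 UMIs in females, 38 of them in old females 2 and 3. Rps4x, an X-linked member, was at 3787 to 4323 CPM in females.

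The ages were then compared in each pool, first by the share of UMIs. Old females 1 to 5 had 17.7%, 17.6%, 18.1%, 17.9% and 19.1% of their UMIs on ribosomal protein genes, and young females 1 to 5 had 18.8%, 18.4%, 18.9%, 18.5% and 18.7%. Thus 4 of the 5 old females lay below every young female and old female 5 lay above all of them. The means were 18.1% ± 0.577 (SD, n = 5) in old and 18.7% ± 0.215 (SD, n = 5) in young females, a difference of −0.58 points, which was −0.82 points without old female 5. Old males 1 to 5 had 21.3%, 19.7%, 20.9%, 21.8% and 21.1%, and young males 1 to 5 had 20.2%, 20.2%, 21.3%, 20.8% and 21.4%. The male groups overlapped, although old male 2 lay below and old male 4 above every young male. Their means were 21.0% ± 0.804 (SD, n = 5) in old and 20.8% ± 0.605 (SD, n = 5) in young males.

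**Figure D3:**
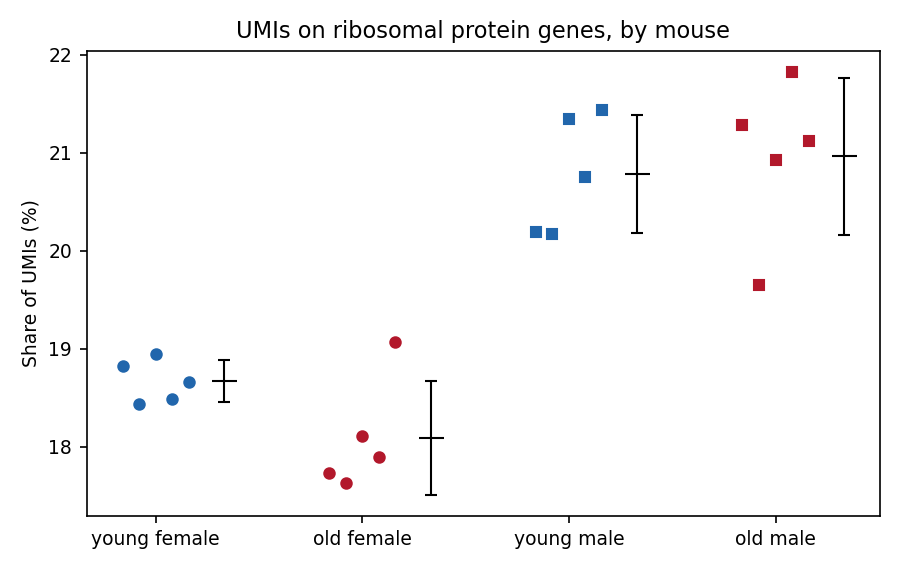
Share of all UMIs on ribosomal protein genes (%, y axis) in each of the 20 mice, with female mice as circles and male mice as squares; black bars give the mean and SD of 5 mice. 4 old females lie below the young females and 1 above, and the male groups overlap.

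Cell composition differed between the ages beside these values. NeuMo-like cells made up 3.25% to 12.5% of the cells of an old female, with the highest value in old female 5, and 5.02% to 6.38% of a young one. DCMo/interferon-like cells were 7.83% to 35.6% in old against 2.59% to 5.72% in young females. Mature-type cells were 6.36% to 41.7% in old against 40.7% to 43.5% in young females. The values of 35.6% and 6.36% were both from old female 1, and the other old females had 7.83% to 9.09% and 27.0% to 41.7%. The cells of old females had a higher median depth (9699.5 to 13033 UMIs against 7978 to 8990). Fewer cells of a type and less RNA per cell cannot be told apart in sums over a mouse, so the share was also taken within clusters. Its mean was lower in old females in each of the 6 monocyte clusters compared, by 0.17 to 0.98 points, but the ages overlapped in each. In DCMo/interferon-like cells the median was 16.87% in the 5 old females and 16.85% in the 4 young females with enough cells. The largest difference of means was in mature-type cells, where old females had 15.6% to 17.4% and young females 17.3% to 17.7%. Thinning cells to 2000 UMIs gives each cell the same weight but leaves its expected share unchanged. With thinned cells the difference over all cells was −0.53 points. It was −0.18 points with 9779 of the 10433 female barcodes assigned by leading hashtag. These had passed the filters without a tie between hashtags, and unlike the main set they included barcodes called doublets or negative. In males the mature-type cells were at 18.2% to 20.4% in the 4 old mice with enough cells and at 19.2% to 21.0% in the 5 young. NeuMo-like cells, again with 4 old males, differed by 0.024 points between the ages. They made up 13.9% to 19.7% of young and 16.1% to 46.9% of old cells, highest in old male 4. Mature-type cells made up 50.4% to 54.8% of the cells of a young male and 2.04% to 43.2% of those of an old one.

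The large and small subunits kept a nearly fixed proportion between the ages of a pool. UMIs on Rpl genes exceeded those on Rps genes by a ratio of 1.11 to 1.12 in old females and of 1.11 in each young female, and by 1.25 to 1.26 in males of either age. The ages overlapped in both pools. Among monocyte clusters the ratio ran from 1.08 (NeuMo-like) to 1.15 (DCMo/interferon-like) in females. In males it ran from 1.25 (G2/M-like) to 1.27 (NeuMo-like).

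Age differences of single members were small in females. Of the 83 tested, 1 fell (Rps24) and 0 rose at an adjusted p under 0.05 in edgeR's quasi-likelihood test, whereas 1.4% of the 10074 genes tested fell and 2.03% rose. Differences were small but mostly in 1 direction, since 67 of the 83 were lower in old females, with a median log2 difference of −0.039 against −0.0012 over all genes. At an unadjusted p under 0.05, 18 members were lower and 1, Rps27l, was higher, beside 8.23% and 8.32% of all genes. The median SE of the log2 difference was 0.032 for members against 0.088 for all genes in females, and 0.055 against 0.19 in males. A small p is therefore reached more easily by members, and genes of like level were not compared. The 95% interval of the log2 difference lay within ±0.2 for 80 of the 83 and within ±0.3 for all 83. Each interval concerns the level of 1 gene relative to the scaled total, in this set of cells. It does not bound a change in RNA per cell. The median came closer to 0, at −0.0021, with the 9779 filtered female barcodes assigned by leading hashtag, which included barcodes called doublets or negative.

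Rps24 encodes a protein of the small subunit needed for processing of its ribosomal RNA, and it lies on chromosome 14 from 24487125 to 24496959 (plus strand, GRCm38), an annotated interval that begins before the RefSeq start printed above. Old females 1 to 5 had 4031, 4133, 4376, 4240 and 4225 CPM, and young females 1 to 5 had 4639, 4585, 4664, 4526 and 4577. All old females were below all young ones, and each value rests on 13187 or more UMIs. The log2 difference was −0.12 (SE 0.026, 95% interval −0.18 to −0.068, adjusted p = 0.015 by edgeR). The call held in each of 19 alternatives, with an adjusted p of 0.0031 to 0.0498. Within clusters, Rps24 did not overlap between the ages in mature-type, Ccnb2/Hist1h2bc, G2/M-like, S-phase-like or NeuMo-like cells of females; in mature-type cells old females had 4086 to 4443 and young females 4545 to 4656 CPM. It overlapped in DCMo/interferon-like cells, where old females had 3713 to 4528 and young females 3924 to 4651. In males, old mice had 2714, 2365, 2502, 2433 and 2450 and young mice 2563, 2513, 2723, 2615 and 2682 CPM. These ranges overlapped, and the log2 difference was −0.072 (SE 0.051, 95% interval −0.18 to 0.036, edgeR adjusted p = 0.64). The difference of the age effects between the pools was −0.043 (SE 0.051, edgeR adjusted p = 0.95), so the effect is not shown to be particular to females.

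**Figure D4:**
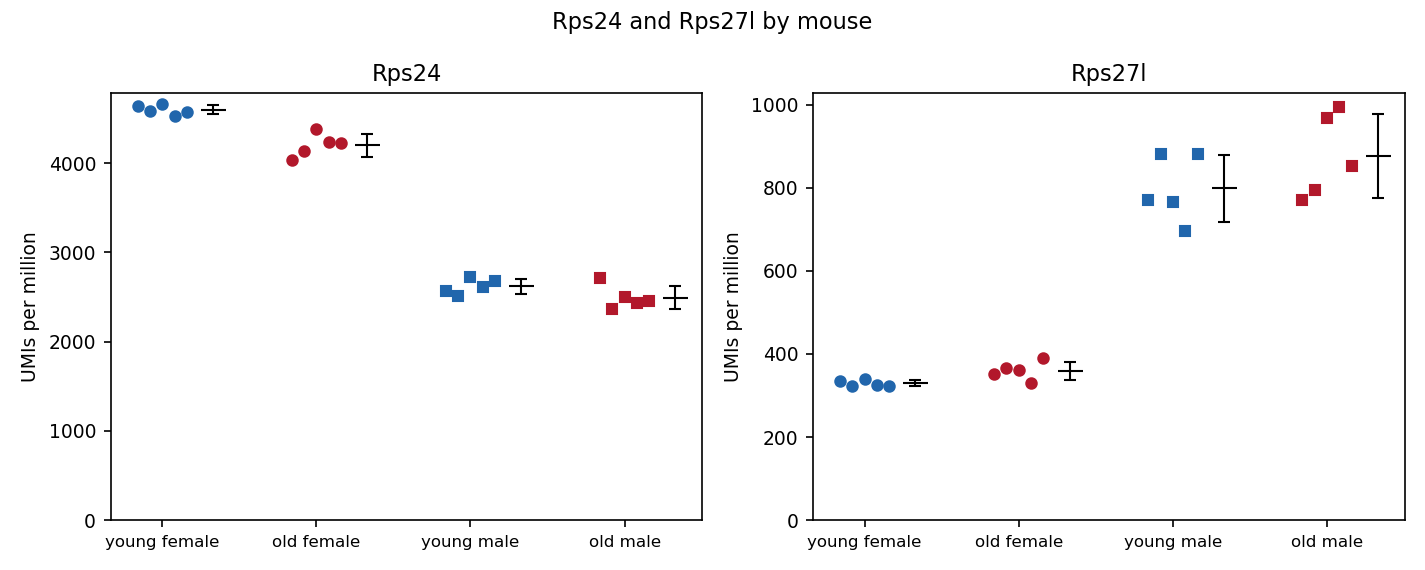
Levels of Rps24 (left) and Rps27l (right) in CPM (y axis, from 0) in each mouse, with young mice in blue and old mice in red; black bars give the mean and SD of 5 mice. For Rps24 the old females (4031 to 4376) lie below the young females (4526 to 4664), and for Rps27l the ages overlap in both pools.

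A further 11 members had every old female below every young female in CPM, so that 12 of 83 (14.5%) were separated this way against 2.91% of all genes, and none the other way against 2.83%. They came evenly from both subunits, and Rpl7, Rpl21, Rpl35a, Rpl37a, Rpl39, Rps7, Rps13, Rps14 and Rps29 were among them. Rpl21, Rpl35a, Rps7, Rps13 and Rps14 are named here after their values were seen. Rpl37a, a large subunit protein, had 1150, 1157, 1232, 1273 and 1243 CPM in old and 1296, 1323, 1333, 1314 and 1315 in young females (log2 difference −0.11, SE 0.034, edgeR adjusted p = 0.091). Rps29, a zinc-binding protein of the small subunit, had 1527 to 1699 in old and 1739 to 1781 in young females (log2 difference −0.11, SE 0.032, edgeR adjusted p = 0.071). Neither passed the threshold. The members share the total they are scaled by and do not vary independently. Their SE, smaller than that of most genes, also makes such a separation easier, and genes of like level were not compared. The count rests on old female 5: without it, 45 members were separated (54.2%, against 4% of all genes) and 8 members were called lower. Without old female 4, 5 members were called, 4 lower and Rps27l higher. Over all genes tested, 385 were called in either direction without old female 5 and 523 without old female 4, against 345 with all mice. The count over all genes thus rose as well, most without old female 4.

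Rps27l stood at the other end of the list in females. Old females 1 to 5 had 352, 367, 361, 329 and 390 CPM and young females 335, 323, 340, 326 and 323. Of the old, 4 were above every young female, while old female 4, at 329, lay within the range of the young. The log2 difference was 0.13 (SE 0.045, 95% interval 0.038 to 0.23, edgeR adjusted p = 0.13). In males the log2 difference was 0.13 as well, with a wider error (SE 0.090, edgeR adjusted p = 0.64), and old males had 770 to 993 against 697 to 882 CPM in young. Its paralog Rps27 had a log2 difference of −0.084 in females (SE 0.038, edgeR adjusted p = 0.28) and of −0.14 in males (SE 0.063, edgeR adjusted p = 0.43), and that of Rps27rt was −0.064 and −0.066. None of these passed the threshold. The other named pairs had log2 differences between −0.098 (Rps4x) and 0.057 (Rpl7l1) in females.

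Members with a high level, chosen by the mean of the CPM of both pools, were Rpl13, Rpl32, Rps19, Rps9 and Rps27a, among others. In females, Rpl13 had 4460 to 4948 CPM in old and 4562 to 4745 in young mice. Rps27a, whose protein is made as a fusion with ubiquitin, had 4306 to 4707 in old and 4515 to 4658 in young females. Rps19, the gene most often mutated in Diamond-Blackfan anaemia, had 2587 to 2801 against 2596 to 2659. The ages overlapped in each of these 5 genes in both pools.

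**Figure D5:**
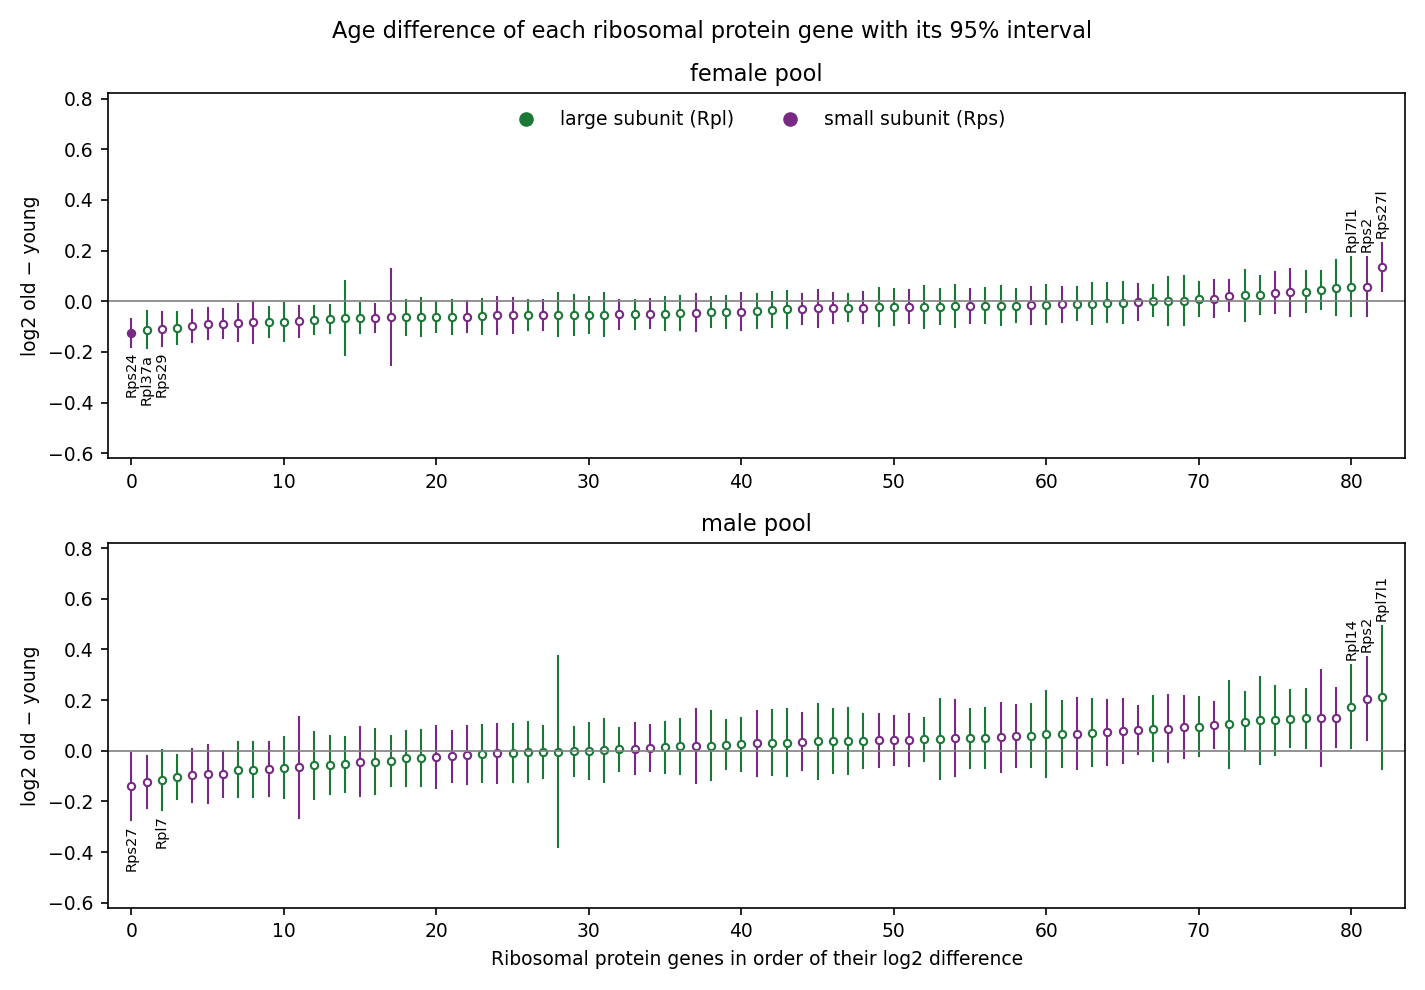
Log2 difference between old and young mice (y axis) of each of the 83 ribosomal protein genes tested, in order of size (x axis), in females (top) and males (bottom); lines are 95% intervals, green marks large and purple small subunit genes, and a filled point an adjusted p under 0.05. The only filled point is Rps24 in females, and 67 of the 83 female points but 31 of the male points lie below 0.

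In males, 0 of the 83 members were called in either direction by edgeR, beside 0% of all 5656 genes tested, and 9 members had an unadjusted p under 0.05 (6 higher and 3 lower, beside 5.62% and 5.3% of all genes), with a lowest adjusted p of 0.32. DESeq2 called 22 genes and 0 members. The median log2 difference of the members was 0.031 against 0.0079 over all genes, and 52 of the 83 were higher in old males. The 95% interval lay within ±0.2 for 55 members and within ±0.3 for 78, so smaller changes could not be seen in this pool. No member was separated between the ages in CPM, against 1.13% of genes with old below young and 0.99% with old above. With CPM scaled by TMM, 2 members had every old male above every young one (2.41%, against 0.955% of genes). The count in CPM also turned on single old males: without old male 1, 7 members had every old male below every young one (8.43%, against 3.08% of genes), and without old male 2, 8 members had every old male above (9.64%, against 2.35% of genes).

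Rpl7l1, Rps2 and Rpl14 had the largest positive log2 differences in males (0.21, 0.21 and 0.17, with edgeR adjusted p of 0.60, 0.32 and 0.42). Rps2 had 2079, 1924, 2316, 2745 and 2096 CPM in old males 1 to 5 and 1867, 1844, 1983, 1898 and 2066 in young males. Old male 4 was the highest, and the ranges overlapped through old male 2. Rps27 and Rpl7 were among those with the largest negative log2 differences (−0.14 and −0.12, with edgeR adjusted p of 0.43 and 0.46). Rps27 was lowest in old male 4, at 3142 CPM, while old male 1, at 4042, was within the young range of 3927 to 4208.

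The order of the members by age difference resembled their order by cell state. Across the 83 genes, the log2 difference between old and young males correlated with the difference between NeuMo-like and mature-type cells measured in females (Pearson r = 0.647, Spearman rho = 0.584). The same held for the age difference in females and the cell state difference measured in males (r = 0.499, rho = 0.489). These are descriptions across genes, which are not independent replicates, and the values of a pool share libraries and scaling. With a mouse left out, the first r ran from 0.457 (without old male 4) to 0.716 (without old male 2). The second ran from 0.306 (without old female 5) to 0.612 (without old female 4). With the alternative assignment of cells to mice the first was 0.738 and the second 0.715. The percentages of NeuMo-like cells given above are highest in old male 4 and old female 5, and their part in the age differences was not tested.

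No member passed the test of a difference between the pools. The interaction of pool and age called 0 of the 83 members in edgeR, beside 0.0112% of 8893 genes in each direction, and at an unadjusted p under 0.05 the difference was lower in females for 6 members and higher for 0, beside 2.71% and 3.22% of all genes. The lowest adjusted p of a member was 0.74. In both subunits most members were lower in old females (40 of 50 large and 27 of 33 small subunit genes) while fewer were in old males (19 and 12). Altogether 18 large and 12 small subunit genes were lower in old mice of both pools, and 9 and 6 were higher in both.

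Genes that act with the ribosomal proteins were read from the same fits. Among 20 translation factors and other genes with TOP starts, such as Eef1a1, Eef2 and Tpt1, 0 were called in either pool, and at an unadjusted p under 0.05 there were 6 lower in females, beside 8.23% of all genes, and 2 higher and 1 lower in males, beside 5.62% and 5.3%. The median log2 difference was −0.049 in females and 0.022 in males. Of 27 ribosome biogenesis genes, such as Fbl, Ncl and Nop56, 0 were called in either pool. The log2 difference was positive for 24 of 27 tested in females and 22 of 24 in males, with medians of 0.11 and 0.15. Over all genes tested it was positive for 5004 of 10074 in females and 2907 of 5656 in males. In each pool 1 biogenesis gene was higher at an unadjusted p under 0.05, beside 8.32% and 5.62% of all genes.

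Larp1, which binds TOP mRNAs and represses their translation when mTORC1 is inactive, was the 1 gene called of 16 in growth control. It rose in old females, with 70.1 to 89.6 CPM against 59.7 to 66.9 in young (log2 difference 0.29, SE 0.065, edgeR adjusted p = 0.020). In males its log2 difference was 0.37 (SE 0.18, edgeR adjusted p = 0.47). Cdkn1a, the p53 target that encodes p21, rose in old females as the 1 gene called of 6 tested in the p53 list (log2 difference 0.28, SE 0.070, edgeR adjusted p = 0.038). In males its log2 difference was −0.18 (edgeR adjusted p = 0.79). Over all genes tested in females, 2.03% were called higher. Of the p53 list, 4 of 6 had a positive log2 difference in females and 2 of 5 in males, with medians of 0.10 and −0.18. The genes of the mitochondrial ribosome, which is built from separate proteins, had a positive log2 difference in 63 of 76 in females (median 0.065) and in 51 of 73 in males (median 0.070). Over all genes tested it was positive for 5004 of 10074 in females and 2907 of 5656 in males. Of the mitochondrial ribosome genes, 2 rose in old females, Mrpl52 (0.26, SE 0.046, edgeR adjusted p = 0.0056) and Mrpl16 (0.24, SE 0.049, edgeR adjusted p = 0.013). In males 0 were called, and the shares of all genes called higher were 2.03% in females and 0% in males. At an unadjusted p under 0.05, 13 of the 76 were higher in females and 9 of the 73 in males, beside 8.32% and 5.62% of all genes, and 0 were lower in either pool.

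Levels of single members differed far more between the pools than between the ages. The ratio of male to female CPM ran from 0.303 (Rpsa) to 7.26 (Rps27), with a median of 1.06. The 10 males and the 10 females did not overlap in 70 of the 83 members, of which 38 were higher and 32 lower in males. The same count was not taken over all genes tested, so it is not shown to be particular to these members. Rps27 was at 488 to 565 CPM in females and at 3142 to 4208 in males, and Rps29 and Rpl37a were 3.77 and 3.81 times as high in males. Depth also differed, with a median of 4540 UMIs per cell in males and 9587 in females. Male cells were assigned by leading hashtag, whereas only barcodes called singlets were kept in females. Sex, library, depth, cell assignment and the counting software version named in the headers coincide in this design and cannot be told apart.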

How the data were processed

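Single-cell RNA and hashtag libraries of a male and a female pool were used, 4 deposited samples in all. Files as deposited hold UMI counts of each gene or hashtag in each barcode, which the authors made, per their processing notes, with STAR 2.5.1 and Cell Ranger 4.0.0 on mm10; file headers name other Cell Ranger versions, which differ between the pools. The counts were not normalized. Male barcodes had been filtered before deposit, and cells with 5% or more mitochondrial UMIs were absent from them. Hashtags were matched to mice by the authors' table.

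Female cells were HTODemux singlets (Seurat 5.3.0) with over 200 genes and under 5% mitochondrial UMIs. As an alternative, the 9779 female barcodes past these filters and without tied hashtags were assigned by leading hashtag, whatever their HTODemux call. Male cells were assigned by leading hashtag, because HTODemux called 401 of the 1227 filtered barcodes doublets. No other doublet caller was run, and the authors' removal of a small female subset was not repeated. Counts were summed per mouse and tested within each pool with edgeR 4.0.16 (quasi-likelihood, TMM, filterByExpr, two-sided, Benjamini-Hochberg adjustment over all genes tested, threshold 0.05) and, with all 20 mice in the fit, for the pool by age interaction; DESeq2 1.42.0 was an alternative. The scripts were tested on simulated counts. Levels are UMIs scaled to CPM of all gene UMIs of a mouse; fold changes are the TMM-scaled fits. Levels were compared between genes only to choose members with a high level, to set paralogs side by side and to sum the subunits. No test was made between genes. Cluster contrasts used log2(CPM + 1) in mice with at least 10 cells of both clusters. Clustering (R 4.3.3, 20 principal components, resolution 0.3, 2000 variable genes) left out the members; clusters were named from marker lists and their leading genes. Gene positions are from a GRCm38 annotation, whose release need not be that used in counting.

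Named genes were members past the threshold, the 3 Rpl and 3 Rps genes with the highest mean of the pools' CPM, paralog pairs, and the 3 largest and 3 smallest log2 differences per pool; non-members were named where called. Some results under this rule are not reported here. Members, lists and tests were chosen with earlier results of these data known. P-values measure the spread between mice of 1 library.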

Additional observations from a re-analysis of the deposited data

Results flagged for a closer look

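The values of 115 groups of 5 mice were screened for a mouse far from the other 4, which chance alone flags in about 1 of 20 groups, and 6 were flagged. In old female 5, Rpl13 was at 4948 CPM (4460 to 4532 in the other old females) and Rps19 at 2801 (2587 to 2632). In old male 2, Rps19 was at 5471 (5947 to 6071 in the other old males) and Rps27a at 3543 (4016 to 4105). Rpl3l was at 15.4 in old male 3, from 11 UMIs (1.80 to 3.04 in the others). Rpl39l was at 1.46 in young male 3, from 1 UMI, and at 0 in the other young males.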

How the results depend on the processing

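Rps24 was called lower in old females under all 19 alternatives tried, and 0 members were called in males or in the interaction under any. In females the number of members called was 2 with DESeq2, 5 with library totals in place of TMM, 3 with cells thinned to 2000 UMIs, and 1 to 8 when each mouse was left out in turn (8 without old female 5). In the main fit 1 member was called. Over all genes tested in females, 345 were called in the main fit, 390 with DESeq2 and 366 with library totals. The genes called in females numbered 151 after thinning, 542 with all filtered barcodes by leading hashtag and 194 to 523 with a mouse left out (385 without old female 5). In males they were 22 with DESeq2, 95 without the filter on low counts, 0 to 39 with a mouse left out (39 without old male 1, 25 without old male 4) and 119 without old males 1 and 4, the last chosen after seeing the data; in the interaction they were 1 to 4 with a mouse left out. Members with every old mouse below every young one numbered 12 to 45 in females and 0 to 7 in males with a mouse left out, and male members with every old above every young 0 to 8 (8 without old male 2, 4 without young male 5). Leaving out a mouse also makes such a separation easier. In these fits old lay below young in 14.5% to 54.2% of female members, against 3.54% to 4.73% of genes. In males this was 0% to 8.43% of members, against 1.56% to 3.08% of genes. Old lay above young in 0% to 9.64% of male members, against 1.26% to 2.35% of genes. Separated members in females numbered 8 with CPM scaled by TMM (9.64%, against 2.63% of genes). They also numbered 8 with all filtered barcodes by leading hashtag (9.64%, against 4.29% of genes). In males, CPM scaled by TMM gave 2 members with every old above every young (2.41%, against 0.955% of genes). The male share differed by −1.67 points within DCMo/interferon-like and by −1.04 points within mature-type cells, against 0.18 over all cells. The ages overlapped in both clusters. DCMo/interferon-like cells were at 17.2% to 22.3% in 4 old males and at 19.3% to 21.9% in 3 young. The difference over all cells was −0.036 (without old male 4) to 0.51 (without old male 2) with a mouse left out, −0.087 thinned, −0.10 as a median over cells and −0.22 without old males 1 and 4, so its sign is not stable. The causes of these shifts were not tested.

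Uncalled log2 differences near 0 changed sign for some named genes. With all filtered barcodes by leading hashtag, females gave 0.011 for Rpl36a, 0.0074 for Rpl13 and 0.027 for Rpl3. Thinning gave −0.0045 for Rpl32, −0.044 for Rps9, −0.0066 for Rpl13 and −0.0079 for Rps27a in males. Without the filter, males gave −0.0043 for Rps9 and −0.011 for Rpl13, HTODemux singlets gave −0.0079 for Rps9, and Rpl13 was at −0.0014 without old males 1 and 4. With a mouse left out, the ranges in females were −0.013 to 0.047 (Rpl22l1), −0.036 to 0.011 (Rps9), −0.0044 to 0.081 (Rpl14), −0.043 to 0.0012 (Rpl3) and −0.0037 to 0.090 (Rps2), and in males −0.048 to 0.022 (Rpl39), −0.063 to 0.00091 (Rps4x), −0.0018 to 0.062 (Rpl22) and −0.0067 to 0.022 (Rpl13).

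Mice of a pool share replicate numbers but no stated pairing, and deviations of same-numbered mice correlated at −0.035 to 0.072. With the replicate number as a block, 305 genes in females, 1 gene in males and the same member count in each pool (1 and 0) were called. Male pools of 49 to 206 cells per mouse limit what could be seen there.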

Other observations

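Rpl3l, the paralog of Rpl3 known from striated muscle, was found in few cells. In females 23 of its 34 UMIs, in 22 of 33 cells with a UMI, were in mature-type cells. In males 11 of its 27 UMIs, in 11 of 20 cells, were in mature-type cells, and 13 were in 6 DCMo/interferon-like cells, with up to 6 UMIs in a cell. The counts are too small for a comparison between the ages. Features with -ps in their symbol, which the naming rule left out, held 0.020% to 0.022% of UMIs in females and 0.042% to 0.051% in males.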
